A study of Drosophila melanogaster with 3 samples.

Results

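The vacuolar ATPase (V-ATPase) genes of Drosophila melanogaster were examined for peaks of GFP-tagged Hr3 at their promoters. The members are the protein-coding genes of the Ensembl BDGP6.54 annotation whose symbol starts with Vha, 33 of the 13945 protein-coding genes on the 6 chromosome arms that carry peaks. All data come from 1 group of 3 biological replicates of whole embryos, aged 0 to 24 h with both sexes pooled. The embryos were of the strain Hr3-GFP, a transgenic line that stably expresses Hr3, also called Hr46, with GFP fused to its C-terminus, and chromatin was precipitated with an antibody against GFP. The tag, not the endogenous protein, was therefore measured, and a whole-embryo library does not say in which cells a site was occupied. There is no second condition, no untagged sample was analysed here, and no groups of samples were compared. Because peak lists and no reads were analysed, sequencing depth is unknown.

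The V-ATPase is a rotary proton pump that acidifies lysosomes, endosomes and secretory vesicles, and it energises the plasma membrane of epithelia such as the Malpighian tubule and the midgut. Its cytosolic V1 sector, with subunits A to H, splits ATP, and its membrane sector V0, with subunits a, c, c'', d and e, carries the protons. Several subunits are encoded by more than one fly gene, of which as a rule 1 serves most tissues while others are used in few, often in the testis. Hr3, a nuclear receptor induced by the steroid hormone ecdysone, is the fly orthologue of mammalian ROR receptors, which bind the ROR response element (RORE) as monomers.

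A promoter summit is the highest point of a peak in the authors' reproducible list that lies within 500 bp of a transcription start site (TSS) of any transcript of the gene. By this rule 12 of the 33 Vha genes had a promoter summit, 36.4% with a 95% exact binomial interval of 20.4% to 54.9% that covers counting error only, and 23.9% of all protein-coding genes had one, a share inside that interval. The 12 genes were Vha68-1, Vha55, Vha36-1, Vha26 and Vha13 of the V1 sector, and Vha100-2, Vha16-1, Vha16-5, VhaAC39-2, VhaM9.7-a, VhaM9.7-b and VhaM9.7-c of V0. They carried 15 summits, since Vha68-1, Vha13 and VhaM9.7-b had a pair each. Of the 14 subunits the genes encode, 9 had a gene with a promoter summit and 5, namely C, F, H, c'' and Ac45, had none. With the strongest peaks of each replicate alone, as many as the reproducible list holds, 34.3% ± 4.63 (SD, n = 3) of the Vha genes and 23.5% ± 0.593 (SD, n = 3) of all protein-coding genes had a promoter summit. The counts of Vha genes were 10, 13 and 11 in replicates 1, 2 and 3, and 8 of the 12 genes were found in each replicate.

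Sequences outside annotated exons within 75 bp of a summit are shown for the A, B, G, c, d and e subunit genes, to show 3 of the 4 strongest summits between genes, the summit of a paralogue pair (VhaAC39-2) and 4 of the 5 summits with the hexamer ATCGAT nearby. Those of Vha16-1 and Vha36-1 are not shown. The letters are dm6 reference sequence, 5′ to 3′ on the strand of the Vha gene, and capitals mark ATCGAT. The distance is that of the summit from the nearest TSS of the gene, negative upstream.
Vha68-1, summit at -119 bp, chr2L:13004151-13004301, minus strand: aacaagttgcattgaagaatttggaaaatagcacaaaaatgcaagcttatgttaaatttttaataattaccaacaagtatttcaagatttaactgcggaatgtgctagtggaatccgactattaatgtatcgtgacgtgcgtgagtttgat
Vha68-1, summit at -320 bp, chr2L:13004352-13004479, minus strand: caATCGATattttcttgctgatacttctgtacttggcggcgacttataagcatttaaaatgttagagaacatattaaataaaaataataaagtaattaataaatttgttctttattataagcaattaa
Vha55, summit at -37 bp, chr3R:12627830-12627941, minus strand: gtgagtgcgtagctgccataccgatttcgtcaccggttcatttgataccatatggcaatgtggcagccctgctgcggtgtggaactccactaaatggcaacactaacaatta
Vha13, summit at -104 bp, chr3R:19644415-19644565, minus strand: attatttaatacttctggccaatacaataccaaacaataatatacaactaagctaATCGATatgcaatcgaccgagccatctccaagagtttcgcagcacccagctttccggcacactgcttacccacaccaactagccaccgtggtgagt
Vha16-5, summit at -279 bp, chr2L:10737247-10737344, minus strand: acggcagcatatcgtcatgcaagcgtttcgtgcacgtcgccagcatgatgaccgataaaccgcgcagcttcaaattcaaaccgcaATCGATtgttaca
VhaAC39-2, summit at -177 bp, chr3R:23159418-23159568, minus strand: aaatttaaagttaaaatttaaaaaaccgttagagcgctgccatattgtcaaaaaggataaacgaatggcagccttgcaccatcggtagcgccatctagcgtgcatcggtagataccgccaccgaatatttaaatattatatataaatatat
VhaM9.7-a, summit at -174 bp, chr3L:4262471-4262606, plus strand: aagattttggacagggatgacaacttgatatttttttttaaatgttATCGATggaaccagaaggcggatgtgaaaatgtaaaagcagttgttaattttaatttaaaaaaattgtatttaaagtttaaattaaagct

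Signal was compared between replicates as relative signal, the replicate's peak signal divided by its median over the reproducible summits. The peak used was the strongest relaxed peak, from the authors' permissive list for that replicate, with its summit within 100 bp of the reproducible one. On this scale 1 is the typical reproducible peak, and the medians divided by were 40.1, 79.2 and 67.6 for replicates 1, 2 and 3 in the authors' units.

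Subunit A, which carries the catalytic sites, is encoded by Vha68-1, Vha68-2 and Vha68-3, and reproducible summits lay at Vha68-1 alone. The stronger summit, at 2L from 13004085 to 13004303 and 119 bp upstream of the TSS, had a relative signal of 2.14, 2.08 and 1.71 in replicates 1, 2 and 3, a mean of 1.98 ± 0.236 (SD, n = 3). The weaker one, at 2L from 13004197 to 13004656, had 0.439, 0.985 and 0.850, with replicate 1 the lowest. Both lie in the stretch of 373 bp between Vha68-1 and mTor, which encodes the kinase of the TORC1 growth pathway and is transcribed away from it. The stronger summit was nearer to Vha68-1, and the weaker one, 53 bp upstream of the mTor TSS, was nearer to mTor.

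Vha68-2, the A-subunit gene of most tissues, lies on the same arm with its nearest reproducible summit 23411 bp away, and Vha68-3 follows it in tandem with 25440 bp. Vha68-2 had a relaxed peak at a promoter in every replicate, with a strongest relative signal of 0.388, 0.603 and 0.576. The pooled relaxed peak there had a signal of 103, and the lowest signal in the reproducible list was 105.40, so Vha68-2 fell just outside it. Among the strongest peaks of single replicates, it was included in replicate 2 alone. No replicate had a relaxed peak at the Vha68-3 promoter.

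**Figure D1:**
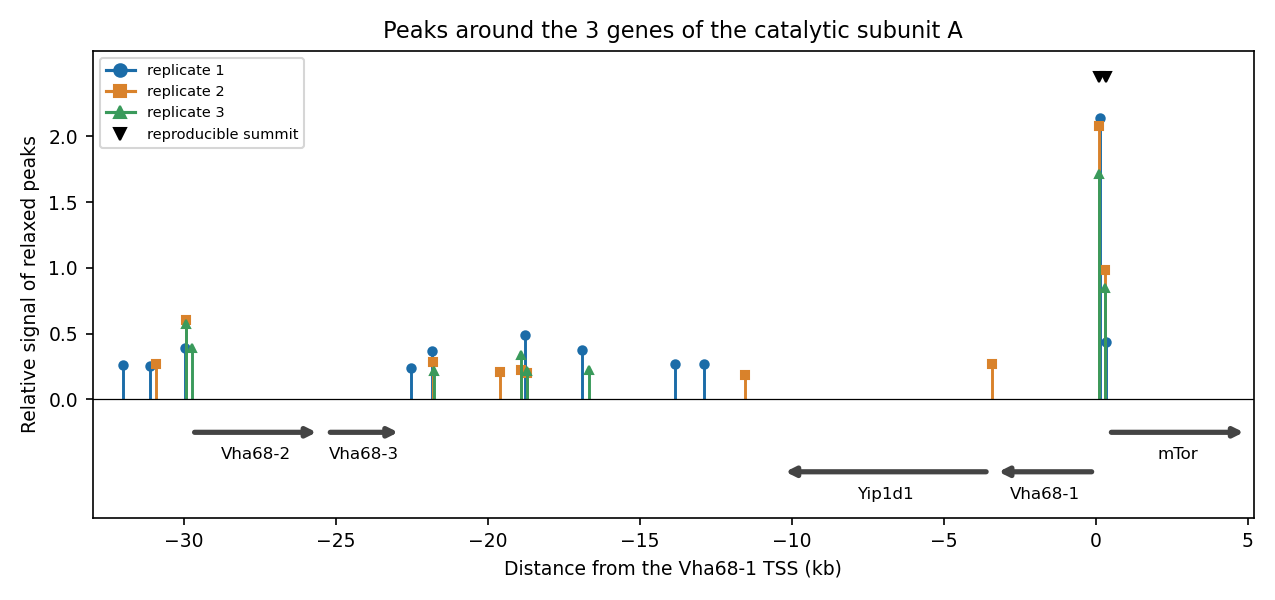
Relative signal of the relaxed peaks of each replicate (points and lines) by distance in kb from the Vha68-1 TSS, positive along the plus strand, with the protein-coding genes drawn as arrows in the direction of transcription and reproducible summits as black triangles. The peaks of all 3 replicates between Vha68-1 and mTor reach 1.71 to 2.14, while those at Vha68-2 stay at or below 0.603.

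Subunit B, the nucleotide-binding partner of A, has the single gene Vha55. Its summit, at 3R from 12627636 to 12628095 and 37 bp upstream of a TSS, had 1.46, 1.14 and 1.48, a mean of 1.36 ± 0.190 (SD, n = 3). All 3 values were above the median of all promoter summits, which was 1.10, 1.09 and 1.07 in replicates 1, 2 and 3. The gene Snx3, for a sorting nexin of endosomes, starts on the other strand, 165 bp beyond the summit.

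The stalk subunits D, E and G each had 1 gene with a promoter summit, all with weak peaks. Vha36-1, the widely used gene of the rotor stalk subunit D, had 0.937, 0.779 and 0.754 at 2R from 15541137 to 15541596. Vha26, the only gene of the peripheral stalk subunit E, had 0.721 and 0.717 in replicates 1 and 3 at 3R from 5591255 to 5591714. In replicate 2 no relaxed summit lay within 100 bp, and the strongest relaxed peak within 500 bp of the TSS had 0.771. The summit lay 26 bp from the TSS of the splicing factor gene noi and 278 bp from that of Vha26.

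Vha13, for the peripheral stalk subunit G, had a pair of summits, 104 and 402 bp upstream of its TSS. The nearer one, at 3R from 19644260 to 19644719, had 0.596, 0.760 and 0.820. The farther one, at 3R from 19644558 to 19645017, had 0.779 and 0.841 in replicates 2 and 3 and no relaxed summit within 100 bp in replicate 1. It lay nearer to the nucleoporin gene Nup58, at 238 bp, than to Vha13. Every value at Vha36-1, Vha26 and Vha13 was below 1, so these peaks were weaker than the typical reproducible peak in every replicate that had one.

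The remaining V1 genes had no promoter summit. Vha44, for subunit C at the interface of the sectors, had relaxed peaks of 0.847, 0.329 and 0.507 within 500 bp of a TSS, and it was among the strongest peaks of replicate 1 alone. VhaSFD, for the regulatory subunit H, had 0.517, 0.163 and 0.354. Vha14-1, the widely used gene of the rotor stalk subunit F, had no relaxed peak at its promoter in any replicate. Vha36-3 had 0.307 in replicate 1 alone. A strong summit near Vha14-1, at 2R from 15679046 to 15679372 with 2.97, 3.09 and 3.15, lay past the 3′ end of the gene, 878 bp downstream of its TSS and 250 bp from that of Gmppa, a gene of GDP-mannose metabolism.

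Among the V0 genes the highest signal of the family was at Vha100-2. It encodes the widely used form of subunit a, which forms the path of the protons through the membrane. The summit, at 3R from 18397056 to 18397358, had 3.79, 2.67 and 2.68, a mean of 3.05 ± 0.641 (SD, n = 3), with replicate 1 the highest. It ranked 419 of the 5357 reproducible peaks. It lay 329 bp upstream of the inner of the 2 TSSs of Vha100-2, in an exon of Vti1b outside its coding sequence, and 262 bp downstream of the TSS of that gene, which encodes a SNARE protein of the endosome. A weaker summit in an intron of Vha100-2, 3298 bp from the nearest TSS, had 0.574, 0.825 and 0.592.

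Of the other 4 genes of subunit a, none had a promoter summit. Vha100-1, the form of neurons, had relaxed peaks of 0.340, 0.532 and 0.310. Vha100-4, which lies next to Vha100-2, had 0.377 in replicate 1 and 0.323 in replicate 3 and no relaxed peak in replicate 2. Vha100-5 had 0.206 in replicate 2 alone and Vha100-3 had none.

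Subunit c, the proteolipid that forms most of the rotor ring, has 5 genes, and Vha16-1 and Vha16-5 had promoter summits. Vha16-1, the widely used gene, had 1.35, 1.66 and 1.47 at 2R from 6633165 to 6633318, a mean of 1.49 ± 0.157 (SD, n = 3). Its summit was 151 bp upstream of the TSS with no other gene's TSS within 500 bp, and a weaker summit lay in an intron, 1695 bp from the nearest TSS, with a mean of 0.679 ± 0.0857 (SD, n = 3). Vha16-5 had 1.80, 1.93 and 1.77 at 2L from 10737193 to 10737420, a mean of 1.83 ± 0.0868 (SD, n = 3). The lowest of its values was above the highest at Vha16-1. That summit lay 23 bp from the TSS of CG12299 and 279 bp from that of Vha16-5.

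Vha16-2 and Vha16-3, which lie side by side on 3L, and Vha16-4 had no promoter summit, and their only relaxed peaks were of 0.167 at Vha16-3 and 0.162 at Vha16-4, both in replicate 2. The related ring subunit c'' is encoded by VhaPPA1-1, the widely used gene, and VhaPPA1-2. VhaPPA1-1 had relaxed peaks of 0.503 and 0.485 in replicates 1 and 2. VhaPPA1-2 had none, and a summit past its 3′ end, 1615 bp from its TSS, lay 77 bp from the TSS of CG3817.

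For subunit d, which joins the ring to the central stalk, the summit was at VhaAC39-2, whose use is largely restricted to the testis, and not at the widely used VhaAC39-1. The VhaAC39-2 summit, at 3R from 23159263 to 23159722, had 0.542, 0.744 and 0.630 and no other gene's TSS within 500 bp. VhaAC39-1 had relaxed peaks of 0.547 and 0.173 in replicates 1 and 2 and none in replicate 3. In replicate 1 the 2 genes therefore had nearly the same value, and in replicates 2 and 3 VhaAC39-2 was the higher. Their pooled relaxed signals were 136 and 39.8.

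Subunit e, a small membrane protein, has 4 genes, and 3 of them had promoter summits. VhaM9.7-b, the gene enriched in transporting epithelia, is counted here as the widely used gene of subunit e. It had a summit 318 bp upstream of its TSS, at 3L from 21539314 to 21539773. Its relative signal was 1.48 and 0.935 in replicates 2 and 3, with no relaxed summit within 100 bp in replicate 1. A further summit at 105 bp, at 3L from 21539527 to 21539986, had 0.839, 0.858 and 0.340. The pair lies between VhaM9.7-b and COX8, which encodes a subunit of cytochrome c oxidase. The peaks of the pair overlap, and replicate 1 had a relaxed summit at the nearer position alone.

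VhaM9.7-a had 0.640, 0.636 and 0.569 at 3L from 4262301 to 4262760, with a pooled signal of 113, the lowest of the 15 reproducible promoter peaks of Vha genes and just above the 105.40 at which the reproducible list ends. VhaM9.7-c had 0.511, 0.707 and 0.625 at 3L from 4186648 to 4187107, 13 bp upstream of its TSS and within introns of CG18675 and Teh2. VhaM9.7-d had a relaxed peak of 0.323 in replicate 3 alone. Neither accessory gene had a promoter summit: VhaAC45 and VhaAC45RP had relaxed peaks of 0.260 and 0.372, both in replicate 1 alone.

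**Figure D2:**
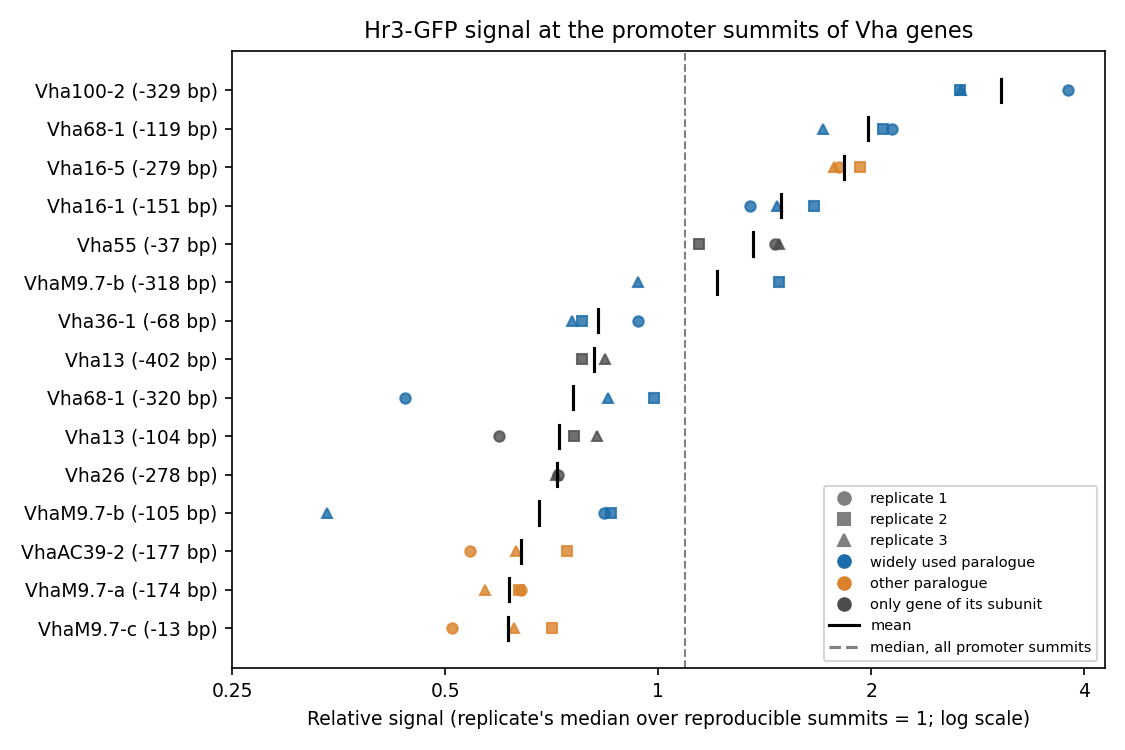
Relative signal on a log scale for the 15 promoter summits of Vha genes, with a symbol for each replicate, the mean as a black bar, and colours for the class of gene; the dashed line is the median of all promoter summits, 1.09 as the mean of the 3 replicates. The summits of Vha100-2, Vha16-5, Vha16-1 and Vha55 and the stronger one of Vha68-1 lie above the line in every replicate, and 9 of the others lie below it in every replicate with a value.

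The Vha promoter summits were weaker, at the median, than promoter summits in general. Their mean relative signal had a median of 0.810 over the 15, against 1.07 over all 2758 promoter summits, and their median rank was 3762 of 5357 against 2378. The 15 include both summits of Vha68-1, Vha13 and VhaM9.7-b, each a pair of overlapping peaks. A median with 1 summit per gene was not computed, so the lower median is that of summits and not of genes. The 2758 are the summits within 500 bp of a TSS of any gene, non-coding genes included. The median in replicates 1, 2 and 3 was 0.839, 0.922 and 0.841 for the Vha summits and 1.10, 1.09 and 1.07 for all promoter summits. The Vha median was the lower in each replicate. When the relaxed peak that overlaps the reproducible one was used instead, the Vha median was 1.04, and both summits of each of the 3 pairs then took 1 shared value. The median of all promoter summits by that rule is not given here, so 1.04 cannot be set against 1.07. Signals ran from 113 to 540 in the authors' units, and 6 of the 15 summits had a mean relative signal above 1, or 40.0% against 53.9% of all promoter summits.

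**Figure D3:**
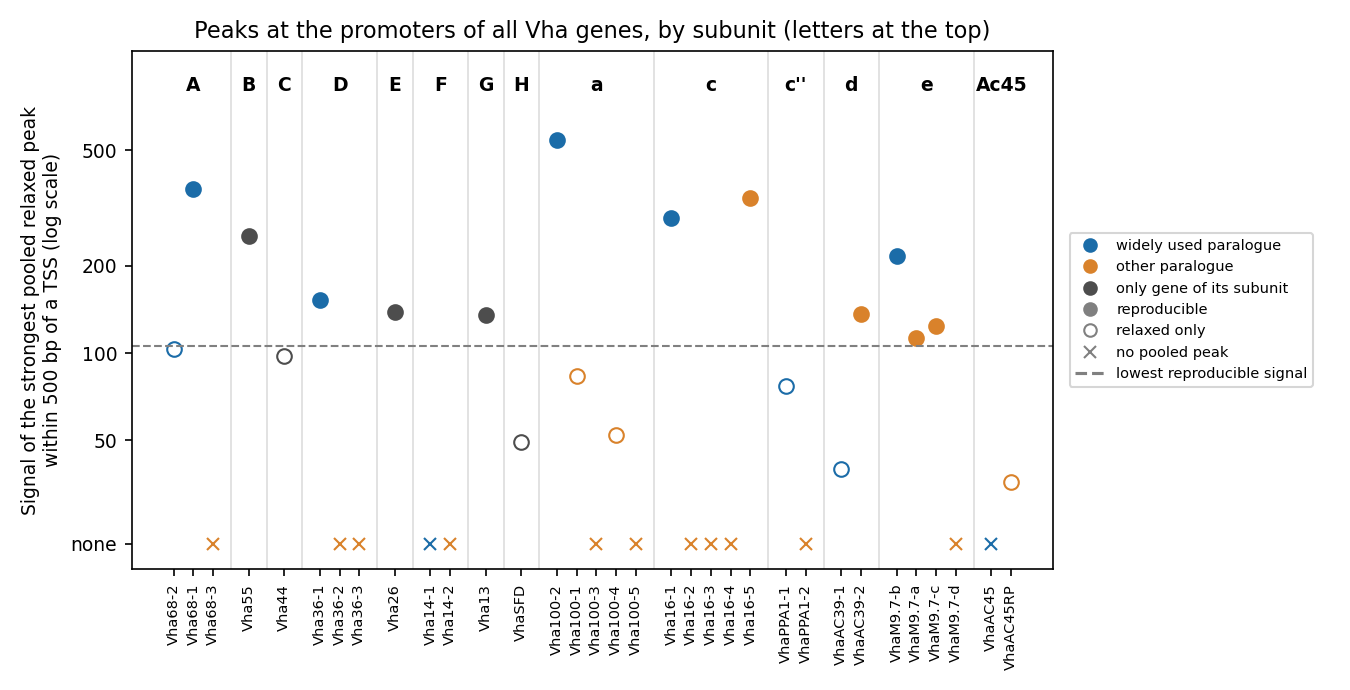
Signal, on a log scale, of the strongest peak of the pooled relaxed list within 500 bp of a TSS of each of the 33 genes, grouped by subunit; filled circles are reproducible peaks, open circles relaxed peaks only, crosses genes with no pooled peak, and the dashed line the lowest reproducible signal, 105.40. Of the 21 genes without a promoter summit, 8 have a weaker pooled peak and 13 have none, and Vha68-2 and Vha44, with 103 and 97.5, lie closest to the line.

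Genes used widely were compared with other paralogues of the same subunit, with the classes taken from general knowledge of these genes and not from the data. Among the 9 subunits with several genes, 5 of 10 widely used genes had a promoter summit and 4 of 18 other paralogues did, the latter 22.2%. The exact 95% intervals, 18.7% to 81.3% and 6.41% to 47.6%, overlap, and both include the 23.9% of all protein-coding genes. The difference was not tested, since genes are not replicates. The count of other paralogues rested on replicates 2 and 3: with peaks required among the strongest of the remaining replicates it was 1 without replicate 2 and 2 without replicate 3. Of the 5 genes that alone encode their subunit, 3 had a promoter summit, with an exact interval of 14.7% to 94.7% that also includes that share.

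Within subunits the pattern was mixed. For D and a, only the widely used gene had a summit, while for d only the other paralogue did. For c and e both kinds had one, with VhaM9.7-b, enriched in transporting epithelia, counted as the widely used gene of e. For A the summits were at Vha68-1, counted here as widely used, and not at Vha68-2. If Vha68-1 is instead counted among the other paralogues, the counts become 4 and 5. No such recount was made for VhaM9.7-b.

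Many of the summits lay between a Vha gene and a neighbour that is transcribed away from it. A head-to-head neighbour, a protein-coding gene on the other strand with its TSS within 1000 bp upstream, was found for 14 of the 33 Vha genes, or 42.4% against 36.2% of all protein-coding genes. Of these 14, 9 had a promoter summit, a share of 64.3%, against 43.9% of all protein-coding genes with such a neighbour. Of the 19 without, 3 had one, a share of 15.8% against 12.5% of all such genes. The exact intervals of the Vha shares, 35.1% to 87.2% and 3.38% to 39.6%, include the shares of all genes. A summit counts for every gene with a TSS within 500 bp, so a summit can count for a gene and its neighbour. The part of this rule in the higher shares was not tested. This division was chosen after its values were seen.

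A head-to-head neighbour was present for 6 of the 10 widely used genes, 4 of the 18 other paralogues and 4 of the 5 genes that alone encode their subunit. Among genes with a neighbour, 4 of the 6 widely used and 2 of the 4 other paralogues had a summit. Among genes without, it was 1 of 4, namely Vha16-1, and 2 of 14, namely VhaAC39-2 and VhaM9.7-c. The part of the neighbour in the difference between classes was not tested. The 5 genes with a neighbour and no summit were Vha44, Vha36-3, Vha14-1, Vha100-1 and VhaAC45, whose neighbours are Hmgs, AANATL7, CG30091, dgt6 and Gnptab.

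**Figure D4:**
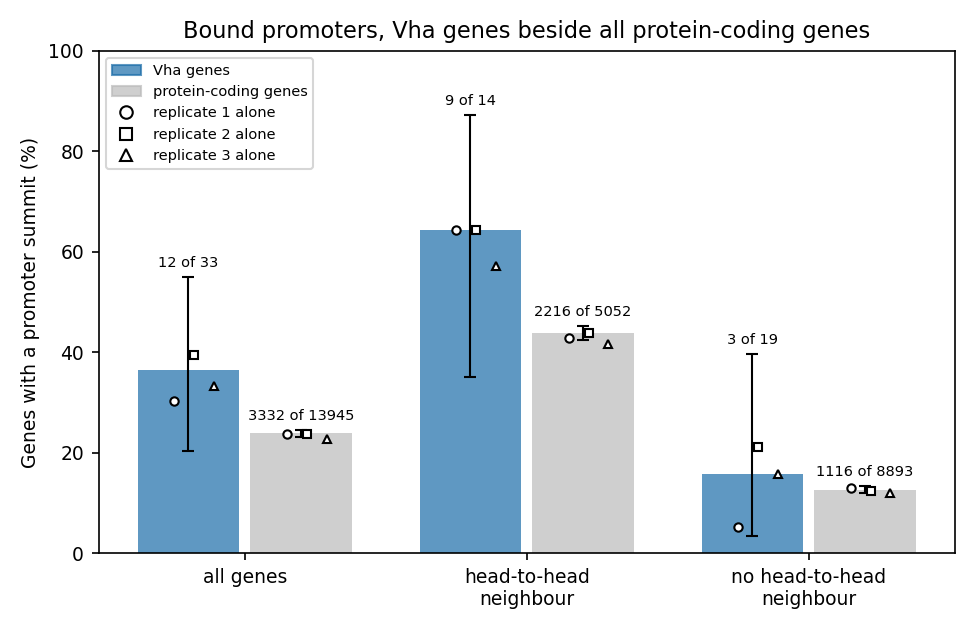
Share of genes with a promoter summit for Vha genes (blue) and all protein-coding genes (grey), for all genes and by the presence of a head-to-head neighbour; error bars are 95% exact binomial intervals, open symbols the values from each replicate's strongest peaks alone. For Vha genes and all genes the share is higher where a neighbour starts head to head, 64.3% and 43.9%, than where none does, 15.8% and 12.5%. A summit can count for a gene and its neighbour.

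All 15 Vha summits lay upstream of the nearest TSS of the Vha gene, at 13 to 402 bp, with a median of 174 bp. The summit of Vha100-2 is upstream of the inner TSS of that gene alone and downstream of the outer one. Of all pairs of a promoter summit and a gene, 90.2% were upstream by the same nearest-TSS rule, with a median signed distance of -149 bp. In 8 of the 15 the TSS of another gene was nearer to the summit than that of the Vha gene, 53.3% against 31.1% of all such pairs. Counting a summit for the gene with the nearest TSS alone left 7 Vha genes with one, Vha68-1, Vha55, Vha13, Vha16-1, VhaAC39-2, VhaM9.7-b and VhaM9.7-c, or 21.2% against 17.4% of all protein-coding genes. Of the 15 summits, 13 lay between genes.

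**Figure D5:**
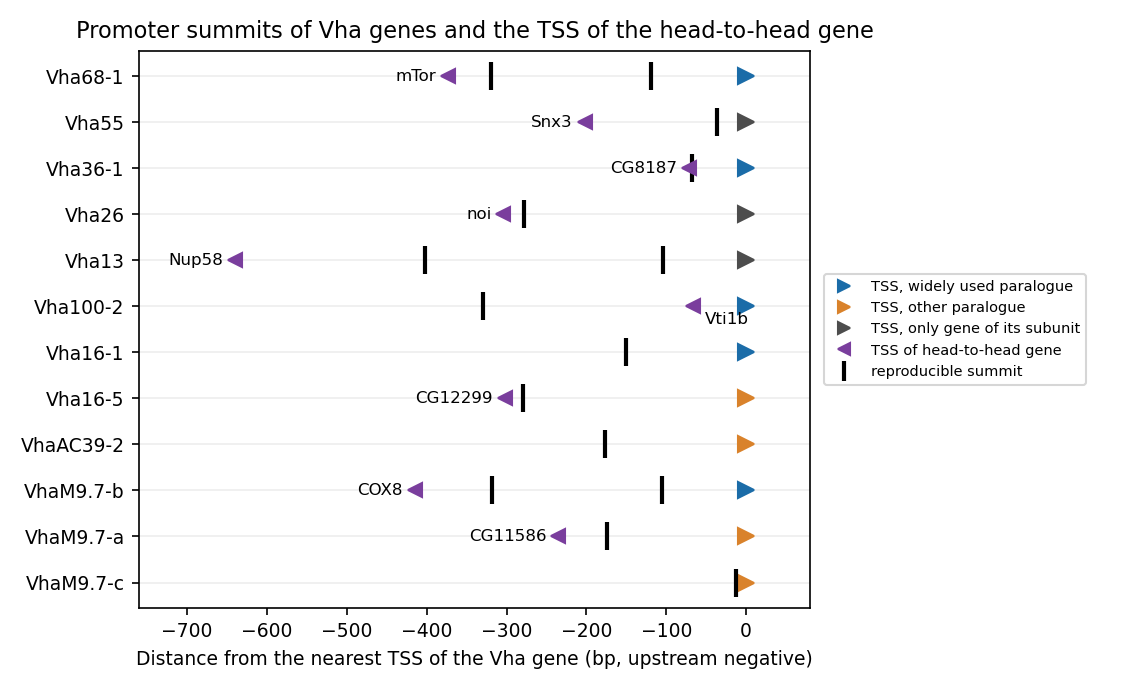
Position of the 15 promoter summits (black bars) in bp from the nearest TSS of the 12 Vha genes, upstream negative, with the TSS of the Vha gene (coloured triangles) and of the head-to-head gene (purple triangles, named). At Vha26, Vha16-5 and Vha36-1 the summit lies within 26 bp of the neighbour's TSS, and at Vha100-2 it lies beyond it.

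None of the 15 summits had a RORE within 100 bp, an element found at 1.05% of all promoter summits, nor the receptor hexamer AGGTCA, found at 4.39%. Elements were searched on both strands. The DNA replication-related element TATCGATA of housekeeping promoters was at none, against 7.25%, and Motif 1, another core promoter element, at none, against 2.21%. The hexamer ATCGAT, the inner part of TATCGATA and added after its matches were seen, was at 5 of the 15, against 16.8% of all promoter summits. These were the summits of Vha13 at 104 bp, Vha68-1 at 320 bp, Vha16-5, Vha36-1 and VhaM9.7-a. GAGAG was at 1, against 17.8%.

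The E-box CACGTG, the core of the sites through which the transcription factor Mitf is known to act on fly V-ATPase genes, was at the summit of Vha55 alone, against 2.07% of all promoter summits. In promoters of 300 bases, from 250 before to 50 after each TSS, CACGTG was found for 5 of the 33 Vha genes, or 15.2% against 5.30% of all protein-coding genes. The longer TCACGTG, which contains it, was found for Vha55, Vha44 and Vha68-2, or 9.09% against 1.58%. Of those 3, only Vha55 had a promoter summit. The other E-boxes were at VhaM9.7-d and VhaAC45RP, both without a summit. In the same promoters AGGTCA was found for 9.09% of Vha genes against 7.53% of all protein-coding genes, and ATCGAT for 30.3% against 26.3%. GAGAG was found for 33.3% against 36.3%, TATCGATA for 6.06% against 10.2%, Motif 1 for 3.03% against 4.96% and the RORE for 0% against 1.00%. The sites of Vha55 and Vha68-2 carry the match in capitals, with the Vha55 site in the first exon of the transcript that starts farthest upstream.
Vha55, 56 bp upstream of the nearest TSS, chr3R:12627757-12627783, minus strand: catgtgacggCACGTGAcgtcacagca
Vha68-2, 95 bp upstream of the nearest TSS, chr2L:12975294-12975320, plus strand: aaagctctgTCACGTGAaacgaaagct

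Base composition at the Vha summits was close to that of promoter summits in general. The GC content over 51 bp had a median of 35.3% and ran from 15.7% at the farther Vha13 summit to 56.9% at Vha16-5, and the median of all promoter summits was 31.4%. Peaks of 460 bp, the most frequent width, made up 11 of the 15, or 73.3% against 72.0% of all promoter peaks. More than 1 summit was found for 3 of the 12 genes, against 14.0% of all genes with a promoter summit.

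Of the 21 Vha genes without a promoter summit, 4 had a relaxed peak within 500 bp of a TSS in all 3 replicates, namely Vha68-2, Vha44, VhaSFD and Vha100-1, against 17.0% of all protein-coding genes without a promoter summit. A further 3 had one in 2 replicates and 7 in 1. The strongest relaxed value per gene ran from 0.162 at Vha16-4 to 0.847 at Vha44. The 7 with none in any replicate were Vha68-3, Vha36-2, Vha14-1, Vha14-2, Vha100-3, Vha16-2 and VhaPPA1-2, of which Vha14-1 alone is a widely used gene. The nearest reproducible summit was 878 bp away at Vha14-1 and 76003 bp away at Vha14-2, the extremes among the 21 genes.

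Genes of related function were examined beside the V-ATPase genes. ATP6AP2, the accessory subunit once named VhaM8.9, falls outside the symbol rule and had a summit 39 bp upstream of its TSS with 0.954, 0.985 and 1.10. Of 4 genes of assembly and transcription, 2 had a promoter summit, REPTOR with 3.68 ± 0.382 (SD, n = 3) and Rbcn-3A, of the complex that joins V1 to V0, with 0.912 ± 0.0309 (SD, n = 3). Rbcn-3B and Mitf had none. REPTOR encodes a transcription factor held in check by TORC1, and its action on V-ATPase genes was not examined.

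Of 14 genes of the lysosomal TORC1 machinery, 5 had a promoter summit, or 35.7%. They were Lamtor3 of the Ragulator complex with 5.43 ± 0.236 (SD, n = 3), mTor with the summits it shares with Vha68-1, Rheb with 1.20 ± 0.0739 (SD, n = 3), RagA-B and Iml1. RagA-B had a relaxed summit within 100 bp in replicate 2 alone, with 1.22. Of 23 genes of lysosomal enzymes and membrane proteins, 7 had one, or 30.4%. The strongest were Hexo2 with 2.92 ± 0.343, Lamp1 with 1.05 ± 0.298 and Ppt1 with 0.875 ± 0.0743 (SD, n = 3), and the others were CtsL1, CtsB, Npc1a and Npc2a.

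The mitochondrial ATP synthase is a rotary enzyme related to the V-ATPase. Of 16 genes listed for it, blw and those with symbols that start with ATPsyn, 3 had a promoter summit. The list may lack subunit genes with other names. The share was 18.8% against 36.4% for the Vha genes, without a test of the difference. The 3 were blw, for the alpha subunit, with 2.66 ± 0.274, ATPsynE with 1.46 ± 0.0581 and ATPsynCF6 with 0.917 ± 0.0693 (SD, n = 3). All these lists were compiled with earlier results of these data known, and their shares stand beside the 23.9% of all protein-coding genes.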

How the data were processed

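Chromatin immunoprecipitation followed by sequencing was done on 3 biological replicates; per the labels, sonication gave fragments of 200 to 800 bp. As the deposited text files describe, the authors called relaxed peaks, against a control, for each replicate and for the pooled alignments. They obtained the reproducible list of 5357 peaks by the irreproducible discovery rate on dm6. The deposited signal of a peak is never negative, and its scale differs between lists; for the aligner and the peak caller, a name is not given in the sources used here. The control library and the dm3 lists were not analysed here, and no peak was tested for being present in embryos that lack the tag. The relaxed lists held 25578, 27006 and 23582 peaks for replicates 1, 2 and 3.

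Coordinates are dm6, 1-based, with the Ensembl release 115 annotation of the same assembly and the RefSeq genome sequence. Python 3.11.15, NumPy 2.4.6, SciPy 1.17.1 and matplotlib 3.10.9 were used. Transposable elements were left out, and a summit counted for every gene with a TSS within 500 bp. The look-up of summits was checked on simulated summits placed within 500 bp of a TSS. That check cannot say which of several nearby genes a summit belongs to. The members, classes, gene lists and elements were chosen with earlier results of these data known, and with 1 group no p-value is given; the head-to-head division and the hexamer ATCGAT were added after seeing the data. All Vha genes are named, with values for those with a promoter summit; of the other lists the 3 strongest members have values. For Tor the current symbol mTor was used, and Vma21 and Flcn were not matched. Alternatives were other promoter widths, peak lists, TSS rules, scalings and windows, and leaving out each replicate.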

Additional observations from a re-analysis of the deposited data

How the results depend on the processing

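The count of 12 Vha genes was 9 with promoters of 200 bp, or 27.3% against 16.9% of all protein-coding genes. It was 13 with 1000 bp, which added Vha14-1, or 39.4% against 27.0%. With the most upstream TSS of each gene alone it was 11, or 33.3% against 21.6%. Single replicates gave 10 to 13, or 30.3% to 39.4% against 22.8% to 23.8%. In the reproducible peaks with signal above their median it was 6, where that of all protein-coding genes was 2042, or 18.2% against 14.6%. With the nearest TSS of any gene alone it was 7, or 21.2% against 17.4%. Leaving out 1 replicate gave 8 to 11, or 24.2% to 33.3% against 19.7% to 20.7%. Under the main settings the 12 genes divide into 9 with a head-to-head neighbour and 3 without. For widely used genes the nearest-TSS rule gave 3. For the other paralogues the count was 1 above the median signal, 2 with the nearest TSS, 2 in replicate 1 alone, and 1 to 3 with a replicate left out. For genes that alone encode their subunit it was 1 above the median signal. The cause of the shifts between settings was not tested. The median relative signal of 0.810 was 1.04 with overlapping relaxed peaks, 0.725 with promoters of 200 bp and 0.810 to 0.848 with a replicate left out. Within 50 bp of the summits CACGTG and TCACGTG were at 0, and within 200 bp TATCGATA (DRE) was at 1 and GAGAG at 2. Single peaks moved by more than their spread in 4 of 15 cases with overlapping peaks and 2 of 15 with the other scaling. With a replicate left out it was 0. That count says nothing about stability, since leaving out 1 of 2 or 3 values cannot shift their mean by more than their SD. No paired analysis was possible because there is only 1 group. Depth is unknown, so a gene without a summit was not detected above the authors' threshold, not shown to be unoccupied.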
